A study of Glycine max with 12 samples.

Results

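Soybean (Glycine max) genes whose symbol is GMTPS followed by a number make up one numbered gene family in the deposited table, which lists 21 of them among 55051 genes. The 11 genes of this family whose normalized count averages 10 or more over the 12 libraries are described here: GMTPS3, GMTPS4, GMTPS5, GMTPS6, GMTPS10, GMTPS11, GMTPS13, GMTPS15, GMTPS20, GMTPS21 and GMTPS22. In all, 33119 genes of the table reached that mean. The choice used no difference between groups. All 21 symbols were found in a RefSeq gene table once the leading GM was dropped. The same table gives the family's number 18 to NES, nerolidol synthase, so the numbering is that of the terpene synthases.

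RNA was sequenced from leaves of wild type soybean plants of the cultivar Magellan (PI595362), raised and regularly watered in growth chambers. The 4 groups were plants under drought and heat together (combined stress), plants under heat alone (heat stress), plants under drought alone (water deficit) and untreated control plants, with 3 libraries each. The sources used here give neither temperature, length of treatment, plant age nor harvest time, nor whether libraries came from separate plants. The p-values therefore measure only the spread between these libraries, which may be technical. Libraries are numbered 1 to 3 within a group, and the numbers pair nothing.

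Terpene synthases turn short prenyl diphosphates into the carbon skeletons of monoterpenes, sesquiterpenes and diterpenes. Plastids supply their substrates through the methylerythritol phosphate pathway and the cytosol through the mevalonate pathway. Many products are volatile and leave the leaf, and in many plants their release changes with herbivory, with the hormone jasmonate and with temperature. GMTPS3 is known as a geraniol synthase. No product is given here for the other members.

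Values are read counts scaled by 1 factor for each library, called normalized counts below. Depth ran from 26077068 to 46186226 reads per library. Normalized counts also grow with transcript length, which the table does not give, so levels are compared between groups and not between genes. All 8 listed leaf markers (Rubisco small subunit, Rubisco activase and chlorophyll-binding protein genes) had reads, and all 8 seed storage genes had at most 3 reads in every library. Of 5 listed nodule genes, 4 had at most 3 reads in every library, while NOD33 had normalized counts of 130.3 to 615.0. In whole leaves, fewer cells of a type and less RNA per cell cannot be told apart. Counting may also have split reads between near-identical copies, which leaves values of single members uncertain to that extent. Libraries of the heated groups split on the clock gene LCL3, whose normalized count was 308.1, 1863 and 2112 in combined stress libraries 1 to 3 and 204.3, 153.3 and 2013 in heat stress libraries 1 to 3. In water deficit it lay between 501.6 and 787.5 and in control between 331.6 and 415.9. Results are therefore also given without the 3 libraries of high LCL3 (combined stress 2 and 3, heat stress 3), which leaves combined stress library 1 alone and assumes that it varies like the other groups.

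GMTPS20 was high in both drought-treated groups. Its normalized count was 603.8, 395.2 and 405.8 in combined stress, 153.8, 294.6 and 167.0 in heat stress, 625.2, 702.1 and 348.3 in water deficit, and 152.4, 103.6 and 132.8 in control. All 6 libraries of the drought-treated groups lay above all 6 libraries of the watered groups. It rose in water deficit, with a mean 4.31 times that of control and a difference of 2.05 ± 0.32 on the log2(normalized count + 1) scale (SE, limma over all tested genes, adjusted p = 0.0158). Of the 11 members it was the only one called in that comparison, where 1.28% of all tested genes were called and 0.589% were called higher. It also rose in combined stress, to 3.61 times the control mean (log2 difference 1.83 ± 0.32, limma adjusted p = 0.00412).

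Averaged over heated and unheated plants, the effect of water deficit on GMTPS20 was 1.64 ± 0.23 (log2, limma adjusted p = 0.00175), and 1 of 11 members was called, against 8.1% of all tested genes called and 3.93% called higher. Combined stress and water deficit differed by -0.22 ± 0.32 (log2, limma adjusted p = 0.694), and their libraries overlapped. Combined stress exceeded heat stress in every library, by 1.22 ± 0.32, at a limma adjusted p of 0.0511 that misses the threshold of 0.05. It was called without heat stress library 2 (limma adjusted p = 0.0461), without water deficit library 3 (limma adjusted p = 0.0321) and with DESeq2 on the reads (adjusted p = 0.00826). The call in combined stress held in each of 12 fits that left out 1 library. That in water deficit did not: the limma adjusted p was 0.0587, 0.0758 and 0.0827 without control library 1, 2 or 3 and 0.0697 without water deficit library 1, with a log2 difference of 1.86 to 2.36 over all 12 fits. Of the 11 members, GMTPS20 was also the only one above the control mean in all 3 combined stress libraries.

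**Figure D1:**
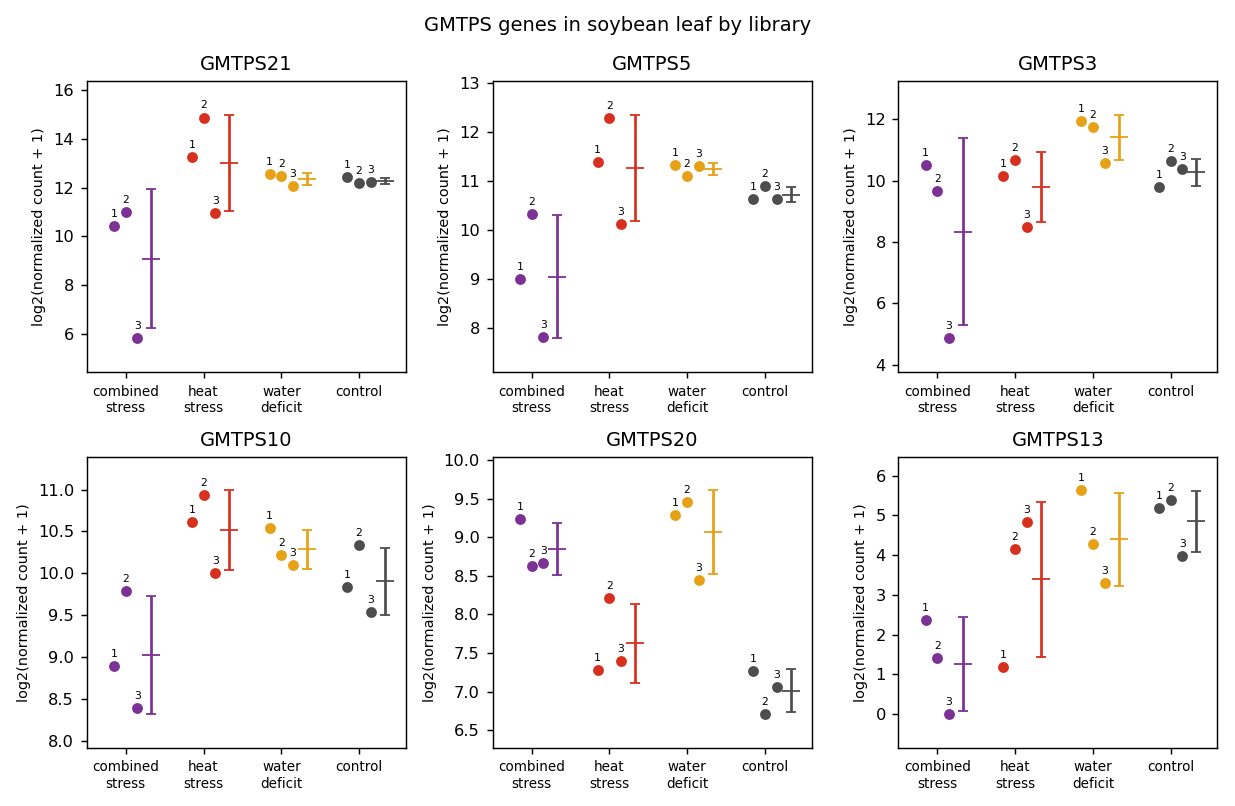
Normalized counts of 6 GMTPS genes as log2(normalized count + 1) in each library (numbered points), with the mean and SD of each group (n = 3) as dash and bar, and groups ordered combined stress, heat stress, water deficit and control from left to right. GMTPS20 is high in both drought-treated groups, while GMTPS21, GMTPS5 and GMTPS3 reach their lowest value in combined stress library 3.

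GMTPS5 and GMTPS10 were lower in combined stress than under either stress alone. GMTPS5 had normalized counts of 508.0, 1273 and 221.7 in combined stress, 2676, 5003 and 1107 in heat stress, 2566, 2195 and 2537 in water deficit, and 1575, 1897 and 1592 in control. Every combined stress library lay below every water deficit and control library, while the range of heat stress reached down into that of combined stress. GMTPS5 fell by 2.21 ± 0.58 relative to water deficit (log2, limma adjusted p = 0.029) and fell by 2.23 ± 0.58 relative to heat stress (limma adjusted p = 0.0464). Relative to control the difference was -1.68 ± 0.58 at a limma adjusted p of 0.0732, and it was called without combined stress library 2 (-2.32, limma adjusted p = 0.019), without heat stress library 3 (-1.68, limma adjusted p = 0.034) and without the 3 libraries of high LCL3 (-1.73, limma adjusted p = 0.00874). Without combined stress library 3 it was -1.06 (limma adjusted p = 0.27).

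For GMTPS10 the normalized counts were 475.8, 879.9 and 333.8 in combined stress, 1565, 1959 and 1026 in heat stress, 1485, 1193 and 1092 in water deficit, and 911.9, 1289 and 744.7 in control. Combined stress lay below both single stresses in every library and overlapped with control through its library 2. The gene fell by 1.26 ± 0.35 relative to water deficit (log2, limma adjusted p = 0.0351) and fell by 1.496 ± 0.35 relative to heat stress (limma adjusted p = 0.0314). Its difference from control was -0.88 ± 0.35 (limma adjusted p = 0.112), and -1.26 without combined stress library 2, where it was called (limma adjusted p = 0.0303). Without combined stress library 3 it was -0.56 (limma adjusted p = 0.38). Under either single stress alone, neither GMTPS5 nor GMTPS10 differed from control at the threshold, with log2 differences between 0.38 and 0.62.

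These were the only members that limma called between combined stress and a single stress. That is 2 of 11 against water deficit, where 12.7% of all tested genes were called and 6.87% were called lower. Against heat stress it is also 2 of 11, where 5.21% were called and 2.83% were called lower. None of these 4 calls held in every fit that left out 1 library. Some were lost without a library outside the comparison. For GMTPS5 against heat stress this happened without any 1 control library, with the difference still at -2.23. With edgeR on the reads neither gene was called against water deficit (adjusted p = 0.056 for GMTPS5 and 0.0536 for GMTPS10), and GMTPS5 was not called against heat stress (edgeR adjusted p = 0.0599). DESeq2 kept all 4 calls and added GMTPS13 as lower against water deficit (adjusted p = 0.00732), where it called 7082 of 33119 tested genes. Against heat stress DESeq2 added GMTPS21, GMTPS15 and GMTPS6 as lower and GMTPS20 as higher (adjusted p = 0.0112, 0.012, 0.00461 and 0.00826). It called 3845 of 33119 tested genes in that comparison. GMTPS15 and GMTPS6 reached a mean of 10 only through heat stress, so the filter itself favours their calls. The GMTPS5 call against water deficit was lost without combined stress library 3 (limma adjusted p = 0.117) and without water deficit library 1, 2 or 3 (0.0795, 0.0703 and 0.0741). Against heat stress the GMTPS5 call was lost in 10 of 12 fits, all but those without heat stress library 3 or combined stress library 2, with limma adjusted p up to 0.179 and log2 differences of -2.23 to -1.61. For GMTPS10 against water deficit the limma adjusted p was 0.0609 and 0.147 without combined stress library 1 or 3, 0.109, 0.0839 and 0.0631 without water deficit library 1, 2 or 3, and 0.0536 without control library 1. For GMTPS10 against heat stress it was 0.0657 and 0.127 without combined stress library 1 or 3, 0.121 and 0.129 without heat stress library 1 or 2, and 0.0513 without control library 1. Leaving out the 3 libraries of high LCL3 leaves combined stress library 1 alone, so only the differences are given. GMTPS5 then differed by -2.25 from water deficit and by -2.85 from heat stress, and GMTPS10 by -1.39 and -1.88.

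GMTPS21 had, at 9.07, the widest log2 range of the 11 members over the 12 libraries. Its normalized count was 1381, 2049 and 55.2 in combined stress, 9706, 30139.8 and 1982 in heat stress, 5973, 5656 and 4268 in water deficit, and 5485, 4616 and 4812 in control. Every combined stress library lay below every water deficit and control library, while heat stress library 3 lay below combined stress library 2. The 3 heat stress libraries differed by a factor of up to 15.2 and the 3 combined stress libraries by a factor of up to 37.1. In control that factor was 1.19.

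With this spread the difference of -3.19 ± 1.17 between combined stress and control did not pass the test (log2, limma adjusted p = 0.091). The same holds for -3.27 relative to water deficit (limma adjusted p = 0.085) and -3.94 relative to heat stress (limma adjusted p = 0.0766). The difference from heat stress was called without heat stress library 3 (-4.98, limma adjusted p = 0.0143) and without combined stress library 2 (-4.90, limma adjusted p = 0.0491). Between heat stress and control it was 0.75 (limma adjusted p = 0.765). This value was -0.18 without heat stress library 2 and 1.79 without heat stress library 3. Relative to control, combined stress stood at -1.56 without its library 3 and at -4.15 at the other extreme of the 12 fits. Without the 3 libraries of high LCL3, GMTPS21 was called higher in heat stress than in control (1.79, limma adjusted p = 0.0153). In combined stress it was then called lower than in control (-1.84, limma adjusted p = 0.0437), water deficit (-1.92, limma adjusted p = 0.0445) and heat stress (-3.63, limma adjusted p = 0.0043).

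GMTPS3, the geraniol synthase gene, had normalized counts of 1456, 798.7 and 28.0 in combined stress, 1137, 1642 and 360.8 in heat stress, 3912, 3392 and 1518 in water deficit, and 877.5, 1587 and 1337 in control. Water deficit libraries 1 and 2 held its 2 highest values, but water deficit library 3 lay within the control range. Water deficit and control differed by 1.14 ± 1.13 (log2, limma adjusted p = 0.744). Combined stress and water deficit differed by -3.07 ± 1.13 (limma adjusted p = 0.0935), with no overlap between their libraries. Without combined stress library 1 that difference was called (-4.16, limma adjusted p = 0.0273), while it was -1.33 without combined stress library 3 and -0.90 without the 3 libraries of high LCL3.

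GMTPS13 was the only member that limma called lower in combined stress than in control; DESeq2 called GMTPS4 lower as well. Its normalized count was 4.13, 1.66 and 0 in combined stress, 1.26, 16.7 and 27.7 in heat stress, 48.5, 18.3 and 8.86 in water deficit, and 35.2, 41.1 and 14.6 in control. The combined stress values correspond to at most 5 reads. GMTPS13 fell by 3.59 ± 0.99 on the log2 scale relative to control (limma adjusted p = 0.0336), and the difference was -1.70 with a pseudocount of 10 in place of 1, where it was still called (limma adjusted p = 0.0457). Across both water regimes the effect of heat was -2.30 ± 0.70 (limma adjusted p = 0.0368), the only call among the 11 members in that comparison, where 21.5% of all tested genes were called and 11.1% were called lower. Leaving out control library 1, 2 or 3 or combined stress library 2 or 3 ended the call against control, with limma adjusted p of 0.105, 0.106, 0.0595, 0.0714 and 0.131. Of the 12 fits, 7 ended the call for heat: those without control library 1 or 2, water deficit library 1 or 2, heat stress library 1, or combined stress library 2 or 3 (limma adjusted p between 0.0612 and 0.0903). Without the 3 libraries of high LCL3 neither was called (-2.49 and -2.11).

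The other low members gave no call with limma. GMTPS4 had 14.0, 7.46 and 8.005 normalized counts in combined stress, 8.83, 13.0 and 26.8 in heat stress, 12.1, 12.8 and 7.09 in water deficit, and 20.3, 24.4 and 65.9 in control. Both drought-treated groups lay wholly below control, with log2 differences of -1.66 in combined stress and -1.54 in water deficit (limma adjusted p = 0.0783 and 0.251). The difference in combined stress was called without heat stress library 3 (limma adjusted p = 0.0488) and with DESeq2 (-1.89, adjusted p = 0.0262). GMTPS22 ranged from 16.01 to 78.5 in combined stress and from 18.6 to 49.1 over the other groups, and without the 3 libraries of high LCL3 it was called higher in combined stress than in heat stress (1.88, limma adjusted p = 0.0472). GMTPS11 ranged from 2.401 to 13.3 in combined stress and from 4.65 to 28.4 over the other groups.

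GMTPS6 and GMTPS15 owed their mean mostly to a single library. In heat stress library 2 they had normalized counts of 96.7 and 75.3, against 7.57 and 16.4 in heat stress library 1 and 0 for both in heat stress library 3. In combined stress GMTPS6 had at most 1 read and GMTPS15 at most 3 reads in any library, so no fold is given for them. Without the 3 libraries of high LCL3, GMTPS15 was called lower in combined stress than in control (limma adjusted p = 0.0445) and heat stress (limma adjusted p = 0.0163). Without heat stress library 3 it was called lower than control (limma adjusted p = 0.0189). With DESeq2 both genes were called lower for the water deficit effect (adjusted p = 0.0201 for GMTPS6 and 0.0223 for GMTPS15). DESeq2 called 4989 of 33119 tested genes for that effect. Both genes reached a mean of 10 only through heat stress. The filter therefore favours these calls and the GMTPS15 call against heat stress. GMTPS6, with a mean of 11.3, stood just inside the limit of 10, and GMTPS23, with a mean of 9.28, just outside.

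**Figure D2:**
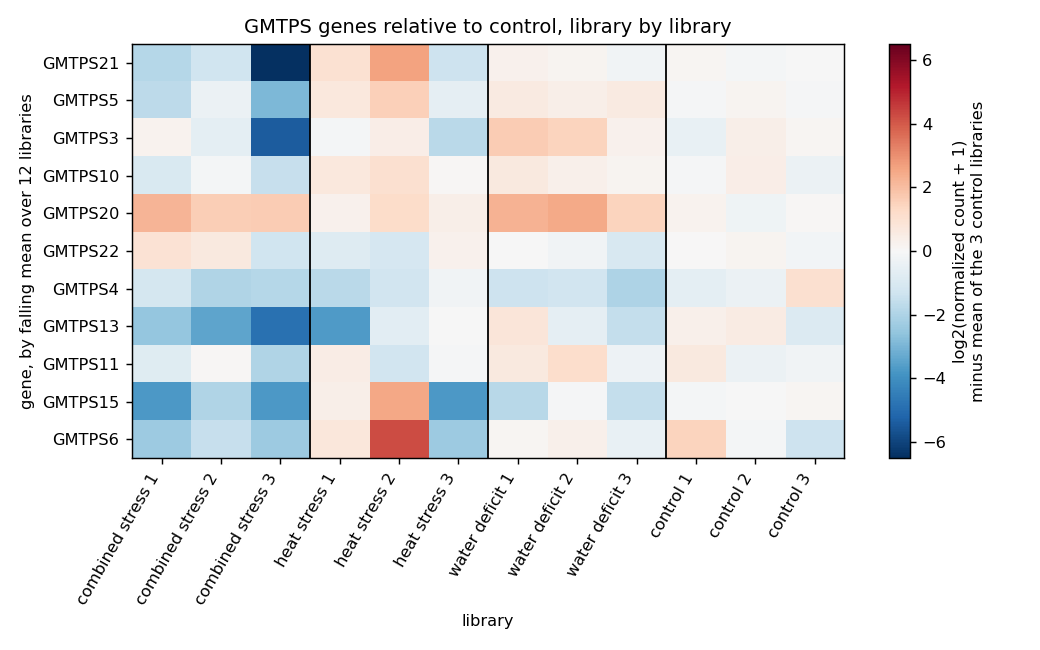
Log2(normalized count + 1) of the 11 members minus the member's control mean, by library, with groups ordered combined stress, heat stress, water deficit and control. Combined stress library 3 holds 10 members below the control mean and only GMTPS20 above it, and heat stress library 2 holds the highest values of GMTPS21, GMTPS5, GMTPS10, GMTPS6 and GMTPS15.

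Heat stress library 2 held the highest value of 5 of the 11 members, and combined stress library 3 the lowest value of 7 of them, shared with no other library for any of the 7. In combined stress libraries 1, 2 and 3, 8, 8 and 10 members lay below their control mean. Heat stress libraries 1, 2 and 3 had 4, 4 and 8 members below it, and water deficit libraries 3, 4 and 7. The high and low libraries thus moved several members together, and the part of the LCL3 split in this was not tested.

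Summed over the 11 members, normalized counts were 4528, 5485 and 1071 in combined stress, 15312, 39264 and 4758 in heat stress, 14689, 13249 and 9816 in water deficit, and 9143, 9629.7 and 8759.9 in control. All 3 combined stress sums lay below all control and water deficit sums. As shares of reads, which are compared between libraries only, GMTPS21 made up 30.5%, 37.4% and 5.16% of the sum in combined stress, 63.4%, 76.8% and 41.6% in heat stress, 40.7%, 42.7% and 43.5% in water deficit, and 59.99%, 47.9% and 54.9% in control. GMTPS20 gave 37.9% of the sum in combined stress library 3, against 1.08% to 1.67% in control. Without GMTPS21 the sums were 3147, 3436 and 1016 in combined stress and between 3658 and 5013 in control, still without overlap.

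**Figure D3:**
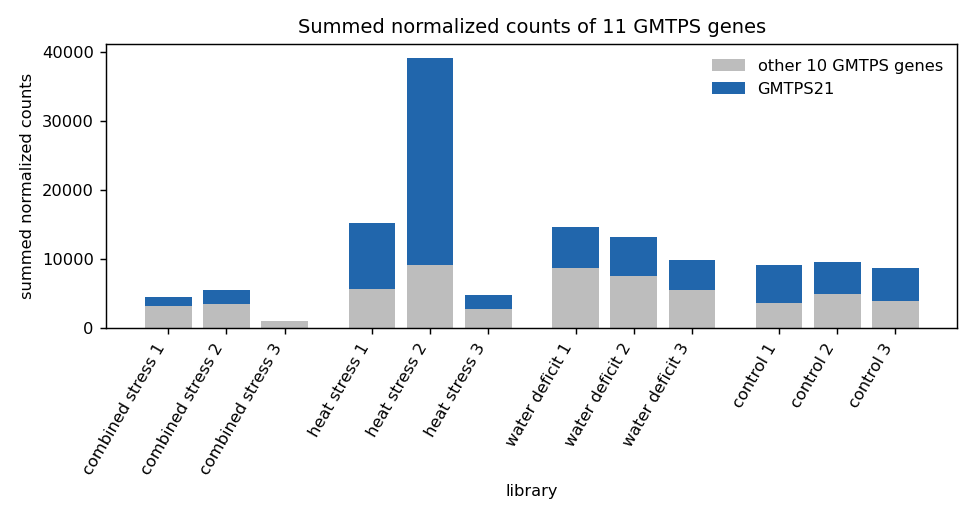
Summed normalized counts of the 11 members in each library, split into GMTPS21 and the other 10 members, with groups ordered combined stress, heat stress, water deficit and control. Heat stress runs from 4758 to 39264, and the combined stress sums of 1071 to 5485 lie below every control and water deficit sum.

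Read as a list, the members differed most from control in combined stress. There 1 member was called higher (GMTPS20) and 1 lower (GMTPS13), against 13.8% of all tested genes called, 6.56% higher and 7.25% lower, and 7 of 11 had an unadjusted p under 0.05. So did 9873 of all 33119 tested genes with limma. Libraries did not overlap with control for 6 members that were lower and 1 that was higher, against 19.7% and 18.5% of all tested genes. The 6 include GMTPS6 and GMTPS15, which reached a mean of 10 only through heat stress, and 4 remain without them, so the counts and medians over the members are given as a description. The median log2 difference of the members was -1.68, against -0.01 over all tested genes, and -1.66 with GMTPS6 and GMTPS15 set to the bound that 3 reads per library allow. It was -1.06 without combined stress library 3 and -1.06 with a pseudocount of 10.

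Relative to water deficit, combined stress showed 7 members lower without overlap, or 5 without GMTPS6 and GMTPS15 (18.5% of all tested genes), with a median of -2.00, or -1.31 with GMTPS6 and GMTPS15 at their bound. With a pseudocount of 10 that median was -0.74, and with quantile normalization -1.30. Relative to heat stress, 1 member was lower and 1 higher without overlap, against 10.2% and 9.17% of all tested genes, and the median was -1.496. That median was -0.43 without the 3 libraries of high LCL3. These comparisons share the combined stress libraries and are not independent of each other.

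Few members were called under a single stress. Water deficit gave a median of 0.08 relative to control (0.53 with the filter at a mean of 50), with 2 members higher and 1 lower without overlap (13.9% and 13.5% of all tested genes). In heat stress no member was called with limma, edgeR or DESeq2, against 3.11% of all tested genes with limma, and 0 members had an unadjusted p under 0.05. Of all 33119 tested genes, 6983 had an unadjusted limma p under 0.05 in heat stress. The median was -0.28 there and 1 member, GMTPS20, was higher without overlap (13.5% of all tested genes). The sign of that median depended on the setting: it was 0.33 with a pseudocount of 10, 0.61 with the filter at a mean of 50, 0.03 with quantile normalization, 0.63 with edgeR and 0.62 with DESeq2. Of the fits that left out a library, it was 0.73 without heat stress library 3 and 0.03 without control library 1, and it was 0.73 without the 3 libraries of high LCL3. Without the 3 libraries of high LCL3, GMTPS21, GMTPS5 and GMTPS10 were called higher in heat stress, by 1.79, 1.12 and 0.87 on the log2 scale (limma adjusted p = 0.0153, 0.0151 and 0.0369), in a fit that called 18.6% of all tested genes.

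**Figure D4:**
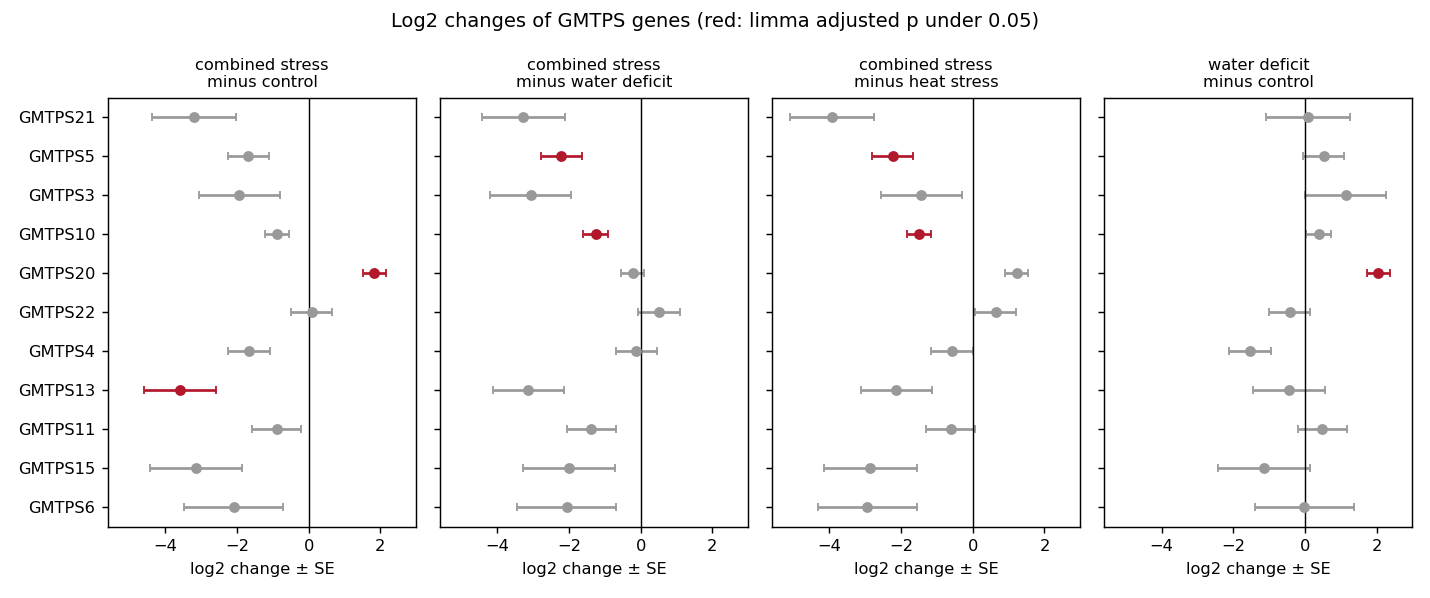
Log2 difference of each member with its SE from limma in 4 comparisons, with differences at an adjusted p under 0.05 in red. GMTPS20 alone is called higher, and the calls below 0 are GMTPS13 against control and GMTPS5 and GMTPS10 against each single stress.

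The interaction asks whether the effect of combined stress differs from the sum of the effects of its parts on the log2 scale. It was below 0 for 9 of 11 members, with a median of -1.71 against -0.04 over all tested genes. The 9 include GMTPS6 and GMTPS15, which reached a mean of 10 only through heat stress, and the median is the value of GMTPS15. The filter favours values below 0 for both genes, so the count and median are given as a description. The median was -1.06 without combined stress library 3 and -0.87 with a pseudocount of 10. It was -2.59 with the filter at a mean of 50, which leaves out both genes, and -1.05 without the 3 libraries of high LCL3. No member was called with limma, edgeR or DESeq2, and 3 members had an unadjusted p under 0.05. Over all tested genes limma called 0.0% and edgeR 0, DESeq2 called 276, and 3132 genes had an unadjusted p under 0.05 with limma. The members in question were GMTPS21 at -4.02 ± 1.66, GMTPS5 at -2.76 ± 0.81 and GMTPS10 at -1.88 ± 0.49 (limma adjusted p = 0.495, 0.411 and 0.400). Without heat stress library 3, GMTPS5 (-3.33, limma adjusted p = 0.0323) and GMTPS10 (-2.13, limma adjusted p = 0.035) were called, as were 1583 of all tested genes (4.78%). Without the 3 libraries of high LCL3 all 3 were called, at -3.71, -3.37 and -2.26 (limma adjusted p = 0.0225, 0.00854 and 0.0239), as were 3.05% of all tested genes.

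The remaining 10 genes of the family were at or near the limit of detection. GMTPS1, GMTPS9, GMTPS16 and GMTPS17 had no read in any library, which allows at most 3 reads of each library's total (counting error only). GMTPS19 had 2 reads and GMTPS27 had 3 reads over all 12 libraries. GMTPS2, GMTPS8, GMTPS14 and GMTPS23 had mean normalized counts of 4.87, 2.60, 5.16 and 9.28 and passed no filter, so they were not tested.

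Some members are neighbours in the genome. In the RefSeq table for the assembly Glycine_max_v4.0, GMTPS4 and GMTPS5 stand next to each other with 0 protein-coding genes between them, and GMTPS10 and GMTPS11 with 1. GMTPS5 was called lower in combined stress than in water deficit, whereas its neighbour GMTPS4 differed there by -0.12 ± 0.58 (log2, limma adjusted p = 0.917). GMTPS11, beside GMTPS10, differed by -1.38 ± 0.69 (limma adjusted p = 0.202). Whether neighbours differ from each other in response was not tested. GMTPS14 and GMTPS15 stand side by side too. In combined stress GMTPS14 had 0, 19.9 and 8.005 normalized counts and GMTPS15 had 0, 2.49 and 0.

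Over the 12 libraries the 5 genes most like GMTPS21 were LOC100794374, LOC100800709, SABATH2, LOC100789695 and LOC778087, with Pearson's r of 0.981, 0.979, 0.976, 0.974 and 0.974 on the log2 scale. SABATH2 belongs to a family of methyltransferases, some of which make volatile methyl esters in plants. GMTPS5 came 20th with r = 0.950 and GMTPS10 165th with 0.888, while GMTPS20 had r = -0.23. These correlations are descriptions over libraries that share 4 treatments and the LCL3 split (r of GMTPS21 with LCL3 was -0.70).

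NES, named here after its values were seen, is the family's number 18 under another symbol and makes the alcohol nerolidol, a step towards a volatile of stressed leaves. Its normalized count was 157.8, 198.0 and 68.0 in combined stress, 2411, 3015 and 2382 in heat stress, 349.0, 389.9 and 108.1 in water deficit, and 691.6, 893.7 and 1467 in control. Heat stress lay above, and both drought-treated groups below, every control library. NES fell by 2.90 ± 0.49 in combined stress relative to control (log2, limma adjusted p = 0.00349) and fell by 4.32 ± 0.49 relative to heat stress (limma adjusted p = 0.00154). Both calls held in all 12 fits that left out a library. Without the 3 libraries of high LCL3, which leaves combined stress library 1 alone, the differences were -2.61 and -4.09. The effect of water deficit over both temperatures was -3.15 ± 0.35 for NES (limma adjusted p = 0.000561), opposite in sign to that of GMTPS20. Heat alone gave 1.42 ± 0.49 (limma adjusted p = 0.131). Water deficit alone gave -1.98 ± 0.49 (limma adjusted p = 0.0809), which was called without the 3 libraries of high LCL3 (limma adjusted p = 0.0394).

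**Figure D5:**
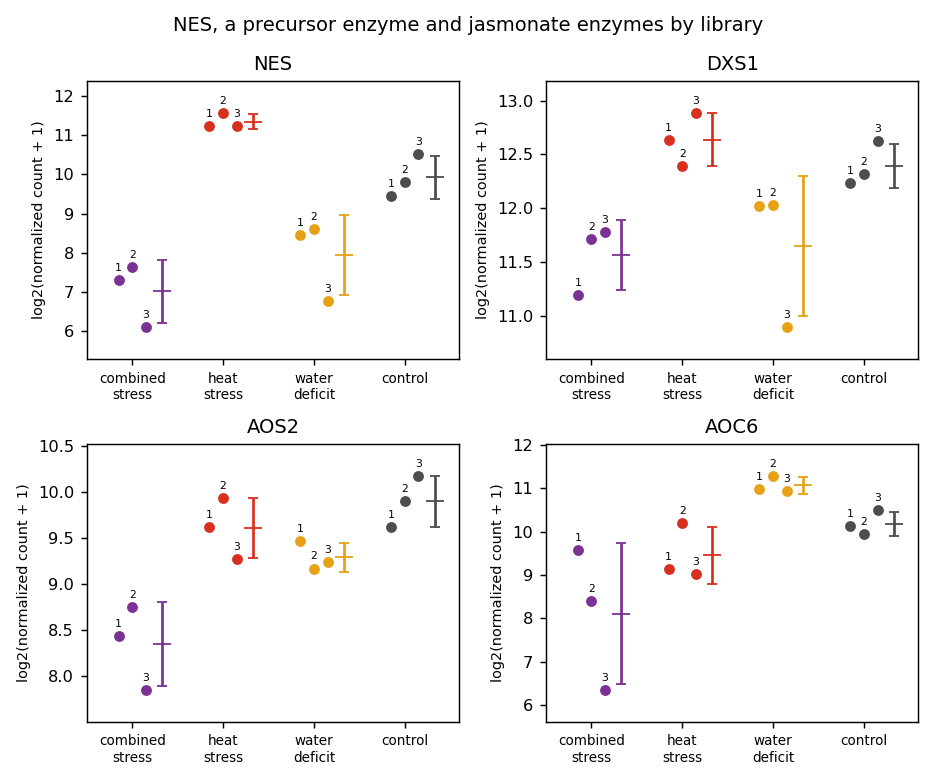
Normalized counts of NES, DXS1, AOS2 and AOC6 as log2(normalized count + 1) in each library (numbered points), with the mean and SD of each group (n = 3) and groups ordered combined stress, heat stress, water deficit and control. NES is highest in all 3 heat stress libraries, and all 4 genes lie below every control library in combined stress.

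Genes that supply the substrates were few by symbol. Of the methylerythritol phosphate pathway, DXS1, DXR1 and DXR2 were tested. In combined stress relative to control limma called 0 of 3, against 13.8% of all tested genes, and so short a list cannot differ clearly from that share. DXS1, the entry enzyme of the pathway, had 2338, 3365 and 3512 normalized counts in combined stress, 6335, 5382 and 7552 in heat stress, 4151, 4179 and 1904 in water deficit, and 4799, 5112 and 6314 in control. It was lower in all 6 drought-treated libraries than in all 6 watered ones, and over both temperatures it fell by 0.91 with water deficit (log2, limma adjusted p = 0.0236). DXR2 went the other way, with 56913, 47574 and 47629 normalized counts in combined stress. It ran from 27111 to 28455 in control, 22448 to 37164 in water deficit and 21907 to 79796 in heat stress. Its log2 differences of 0.85 from control and 0.90 from water deficit were not called (limma adjusted p = 0.214 and 0.188). DXR1 in combined stress overlapped with control. GPPS, which makes the substrate of monoterpene synthases, stayed under the filter, with normalized counts of 0 in all 3 combined stress libraries, 0, 1.86 and 0 in heat stress, 11.2, 1.83 and 4.43 in water deficit, and 28.2, 10.7 and 6.28 in control. No gene of the mevalonate pathway was found by symbol.

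Genes of jasmonate synthesis and perception formed the other list, with 7 of 8 listed genes tested. In combined stress limma called 0 higher and 2 lower than control (6.56% and 7.25% of all tested genes), with a median of -1.55 against -0.01 over all tested genes. AOS2, an allene oxide synthase, had 346.9, 430.0 and 230.5 normalized counts in combined stress, 788.1, 978.6 and 620.6 in heat stress, 707.3, 575.7 and 602.7 in water deficit, and 787.7, 958.5 and 1157 in control. It fell by 1.55 ± 0.25 relative to control (log2, limma adjusted p = 0.00265). AOC6, an allene oxide cyclase, had 757.5, 338.9 and 80.8 normalized counts in combined stress and between 976.8 and 1434 in control. In heat stress it had 562.4, 1178 and 515.2. In water deficit it had 2030, 2496 and 1949, above every control library. In combined stress AOC6 fell by 2.07 ± 0.61 relative to control (log2, limma adjusted p = 0.0433). That call was lost in 9 of the 12 fits, being kept without heat stress library 2 or 3 or combined stress library 1, and the difference was -0.61 without the 3 libraries of high LCL3 and -1.19 without combined stress library 3. Relative to water deficit, limma called 4 of the 7 lower and 0 higher in combined stress, against 6.87% of all tested genes called lower. Relative to heat stress it called 1 lower, against 2.83%. COI1, also on the list, differed by -0.10 between combined stress and control (log2, limma adjusted p = 0.728). In water deficit relative to control, 3 of the 7 were higher and 2 lower without overlap, against 13.9% and 13.5% of all tested genes. Of the 7, 0 were called there, against 1.28% of all tested genes.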

How the data were processed

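The authors deposited 1 table of signal per gene for the 12 libraries, named normalized counts. The submitters' processing notes name cutadapt 1.18, FastQC 0.11.7, STAR 2.4.0.1 and DESeq2 1.20.0. Settings, genome build, annotation and strand handling are not given in the sources used here. Dividing each deposited column by the value of a single read in it gave whole reads for 100% of positive values (tolerance 0.001).

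Genes with a mean of at least 10 were tested with limma 3.58.1 (R 4.3.3) on log2(normalized count + 1), all 4 groups in 1 fit, with a variance trend, two-sided, and Benjamini-Hochberg adjustment over 33119 genes within each of 8 comparisons. Log2 changes on this scale understate those of low genes. As alternatives, edgeR 4.0.16 (quasi-likelihood, TMM) and DESeq2 1.42.0 (outlier and independent filtering off) were run on the recovered reads; for combined stress against control they called 4381 and 6936 genes, and limma 4573. Other alternatives changed the pseudocount, filter, variance trend, scaling, groups fitted or libraries. The fits were also run on simulated counts, drawn independently for each library and without the LCL3 split. That run cannot show how calls depend on single libraries in these data. The SE values come from limma's estimate of the spread between libraries, while floors cover counting error only.

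Every GMTPS gene is named. Other genes named are those of highest mean or called in combined stress in short symbol lists, the 5 most like the member of highest mean, clock genes, and NES. The members and lists were chosen with earlier results of these data known. Sequences were not used here.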

Additional observations from a re-analysis of the deposited data

How the results depend on the processing

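Without the 3 libraries of high LCL3 the number of the 11 members called was 3 for heat stress against control, 4 for combined stress against control, 5 for combined stress against heat stress, 3 for the interaction, 0 for the heat effect and 5 for the water deficit effect over both temperatures. That fit leaves combined stress library 1 alone, so no weight is put on these counts. With the filter at a mean of 50, which leaves 5 members, combined stress against control gave 1 member called and the heat effect 0. Combined stress against water deficit gave 1 without the variance trend, 1 with equal library totals, 0 when only the groups compared were fitted and 0 with edgeR. Combined stress against heat stress gave 1 without a filter, 1 without the trend, 0 with only the groups compared, 1 with edgeR and 6 with DESeq2, which also gave 3 for the water deficit effect. Both DESeq2 counts include GMTPS6 and GMTPS15, whose calls the filter favours. Leaving out each library in turn gave 0 to 1 members for water deficit against control, 0 to 0 for heat stress against control, 1 to 5 for combined stress against control, 0 to 3 against water deficit and 0 to 5 against heat stress, 0 to 2 for the interaction, 0 to 2 for the heat effect and 1 to 2 for the water deficit effect. Both counts of 5 came without heat stress library 3, where 20.0% and 20.7% of all tested genes were called. The same fit gave the 2 for the interaction and the 2 for the water deficit effect, against 4.78% and 18.5%. Over all tested genes, limma's 423, 1031, 4573, 4221, 1724 and 0 calls (water deficit, heat stress and combined stress against control, combined stress against water deficit and heat stress, interaction) ran over the other settings from 284 to 1938, 295 to 6159, 3842 to 6936, 2856 to 7082, 127 to 4243 and 0 to 1010. Leaving out each library in turn they ran from 30 to 882, 139 to 4742, 1994 to 6614, 1233 to 6460, 382 to 6840 and 0 to 1583, so the background shares depend on single libraries too. The water deficit effect gave 2682 calls, and 5097 without the 3 libraries of high LCL3. GMTPS21 in heat stress against control turned to -0.18 without heat stress library 2, within a range of -0.18 to 1.79 over these fits. The cause of these shifts was not tested. No paired analysis was possible because the labels carry no replicate number shared between groups.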
